A study of Rattus norvegicus with 8 samples.

Results

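The transcripts described here are 10 genes that are classically known to respond to histone deacetylase inhibitors in other cells: Cdkn1a, Gadd45b, Txnip, Glrx, Mt1, Mt2A, Gsn, Crip1, Clu and Sncg. They were listed by name under a rule that uses no measured value, although earlier results of these arrays were known when the list was made, and are 10 of the 14497 genes, and 12 of the 28826 probe sets, on the array. Mt1 and Mt2A each had a second probe set. The brightest probe set of each gene, by its mean on the 8 arrays, was used, and the second one served as a check. Adult male Wistar rats received the class I inhibitor MS-275 (HDACI) at 30 nmol per day, or its vehicle of dimethyl sulfoxide in saline, from an osmotic pump through an intrathecal catheter. In both groups the L5 spinal nerve was transected, and the ipsilateral L5 dorsal root ganglion (DRG) was collected at day 14. There were 4 HDACI and 4 vehicle samples, each on 1 Affymetrix Rat Gene 1.0 ST array. All ganglia were injured, the catheter opened over the lumbar spinal cord rather than over the ganglion, and no uninjured or untreated DRG was on these arrays, so the values compare HDACI with vehicle after injury only.

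Histone deacetylases remove acetyl groups from histone tails, and class I enzymes do so in large repressor complexes in the nucleus. When they are inhibited, acetylation spreads over promoters, and a small set of genes such as the cell cycle inhibitor Cdkn1a is transcribed more strongly in many cultured cells. For L5 DRG the paper reports no clear difference in histone acetylation between HDACI and vehicle, globally or at the promoters tested. By its account, the drugs seemed not to arrive there at detectable levels. The DRG contains sensory neuron cell bodies together with satellite glia, Schwann cells, macrophages, fibroblasts and blood vessels, and after nerve transection many of these cells change their expression. Values are signals on the log2 scale, so that a difference of 1 is a doubling, and differences are HDACI minus vehicle with the standard error (SE).

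The 10 responders showed no common rise in HDACI DRG. By limma, 0 of the 10 passed an adjusted p of 0.05 (adjusted p = 1.0 for each), and 0% of all probe sets passed. At an unadjusted p under 0.05 there was 1 member, Gadd45b, against 3.55% of all probe sets. The lowest and highest arrays of the groups did not overlap for 2 members, Cdkn1a and Gadd45b, against 2.10% of all probe sets. These 2 lay in opposite directions, 1 higher in HDACI (1.01% of all probe sets) and 1 lower (1.09%). Of the 10, 4 were higher in HDACI and 6 were lower, while 53.1% of all genes had a difference above 0. The median difference was -0.0084 over the members and 0.0046 over all genes. Over the brightest probe sets, the highest upper end of a 95% interval was 1.42-fold, for Mt2A, and its second probe set reached 1.48-fold. These intervals were taken gene by gene and hold for the whole ganglion, not for a single cell type. The DRG is a mixed tissue, and in such samples fewer cells of a type and less RNA per cell cannot be told apart.

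**Figure D1:**
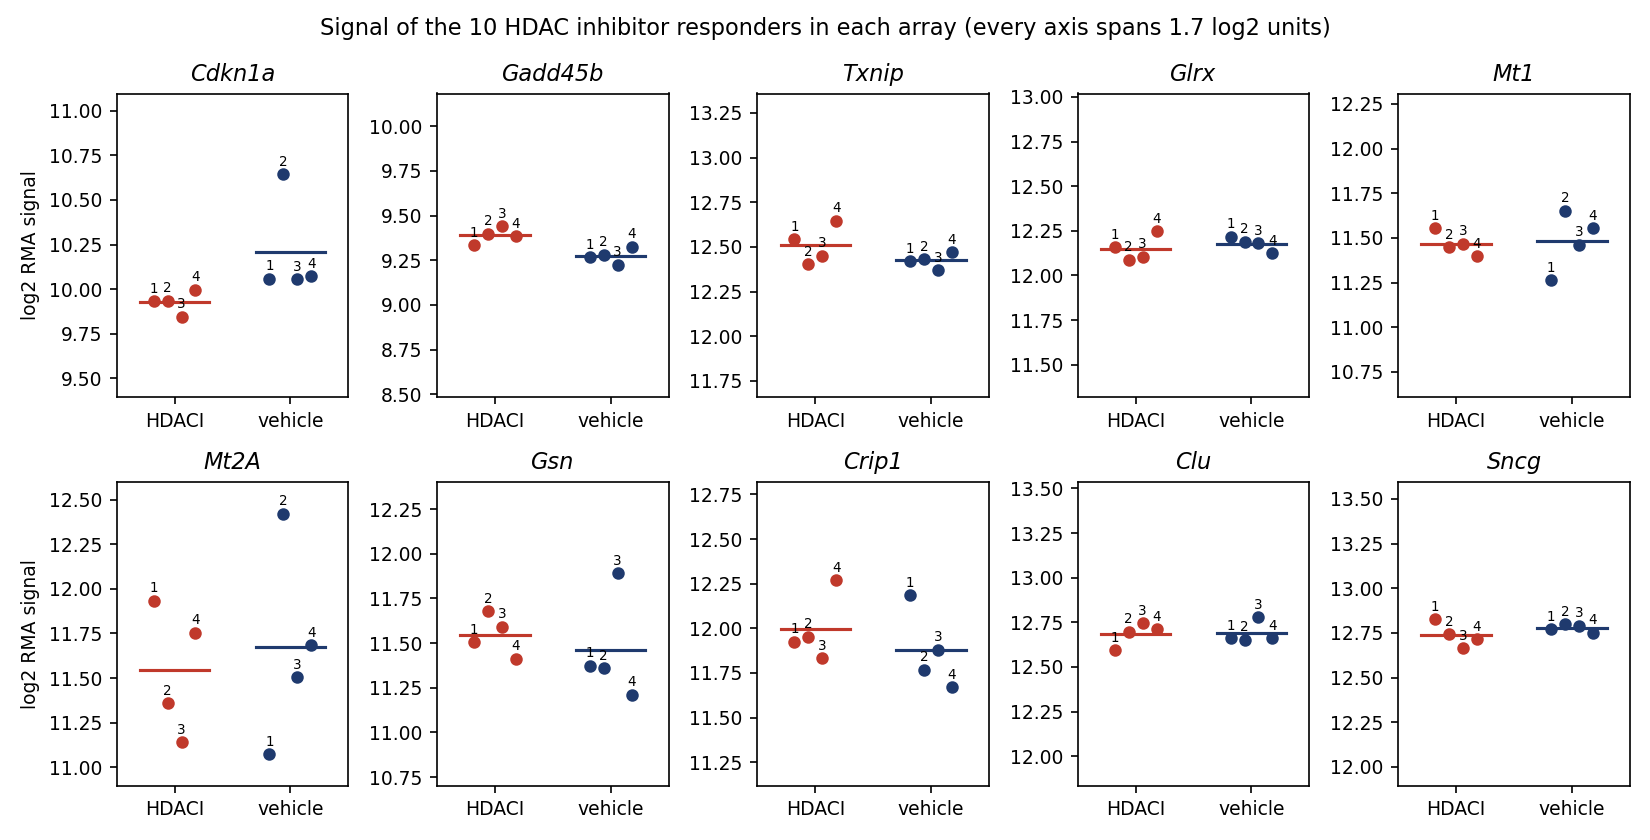
Log2 signal of each responder on each array, HDACI in red and vehicle in blue, with bars for the group means (n = 4 each), replicate numbers above the points and axes of equal length. The groups stand apart for Cdkn1a (HDACI 9.85 to 9.996, vehicle 10.06 to 10.64) and Gadd45b (HDACI 9.33 to 9.44, vehicle 9.23 to 9.33) and overlap for the other 8 genes.

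Of the growth arrest genes, Cdkn1a encodes p21, which binds cyclin-dependent kinases and halts the cell cycle, and it is the textbook target of HDAC inhibitors, usually induced by them. Cdkn1a measured 9.93, 9.94, 9.85 and 9.996 in HDACI replicates 1 to 4, against 10.06, 10.64, 10.06 and 10.07 in vehicle replicates 1 to 4. Every HDACI array lay below every vehicle array, and vehicle replicate 2 lay far above the other vehicle arrays. Cdkn1a averaged 9.93 ± 0.06 in HDACI and 10.21 ± 0.29 in vehicle (SD, n = 4 each), a difference of -0.28 ± 0.13 (SE), or 0.823-fold, with a 95% interval of 0.674 to 1.01-fold. The difference passed neither the adjusted (adjusted p = 1.0) nor the unadjusted threshold in limma. An exact permutation test over the arrays gave p = 0.0286, two-sided, which is the smallest that 70 relabellings can give. Its size depended on 1 array, and without vehicle replicate 2 it was -0.13 ± 0.05 (SE), past an unadjusted p of 0.05 in limma. No setting turned it positive.

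Gadd45b, a stress-induced protein that activates MAP kinase signalling and takes part in DNA repair and demethylation, was the only member past an unadjusted p of 0.05. Gadd45b measured 9.33, 9.40, 9.44 and 9.39 in HDACI replicates 1 to 4, against 9.27, 9.28, 9.23 and 9.33 in vehicle replicates 1 to 4. Every HDACI array lay above every vehicle array, but the lowest HDACI and the highest vehicle array were 9.33 each when rounded. Gadd45b averaged 9.39 ± 0.04 in HDACI and 9.28 ± 0.04 in vehicle (SD, n = 4 each), a difference of 0.11 ± 0.04 (SE), or 1.08-fold with a 95% interval of 1.01 to 1.16-fold. By limma it did not pass after adjustment (adjusted p = 1.0), and the exact permutation p was 0.0286, two-sided, again the smallest possible. With any 1 array left out the difference stayed between 0.098 and 0.13, but in 5 of these 8 fits it no longer passed an unadjusted p of 0.05. Cdkn1a passed that threshold in 4 of the 8, each without 1 vehicle array. After a second quantile normalization or cyclic loess, the groups did not overlap for 1 member rather than 2 (2.37% and 2.51% of all probe sets).

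None of the genes outside the 10 that are named in what follows passed adjustment in limma. Cdkn1b (p27) differed by 0.02 and Cdkn1c (p57), an imprinted inhibitor of the same family, by 0.12 ± 0.06 (SE). Gadd45a, which is itself induced by axon injury in sensory neurons, differed by -0.07 and Gadd45g by -0.03. Among 13 measured targets of p53, the factor that controls Cdkn1a in DNA damage, 11 were higher and 2 lower, with a median of 0.010. By limma, 1 passed at an unadjusted p under 0.05 and 0 after adjustment. This was Tp53inp1, a p53-induced stress protein, which differed by 0.13 ± 0.05 (SE). Zmat3, an RNA-binding p53 target, differed by -0.12 ± 0.05 (SE). Of 18 proliferation genes, 13 were higher and 5 lower with a median of 0.03, and 0 passed at an unadjusted p under 0.05 by limma. The 2 with the smallest p were the cell cycle transcription factor E2f1 (0.08) and the mitotic kinase Aurkb (0.09).

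Of the redox and glucose genes, Txnip encodes the thioredoxin-interacting protein, an arrestin that inhibits thioredoxin and glucose uptake, and it is induced by HDAC inhibitors in tumour cells. Txnip measured 12.54, 12.40, 12.45 and 12.65 in HDACI replicates 1 to 4, against 12.42, 12.43, 12.37 and 12.47 in vehicle replicates 1 to 4. HDACI replicates 1 and 4 lay above all vehicle arrays, replicate 3 lay among them and replicate 2 lay below 3 of them. Txnip averaged 12.51 ± 0.11 in HDACI and 12.42 ± 0.04 in vehicle (SD, n = 4 each), and the difference of 0.09 ± 0.06 (SE) did not pass (limma adjusted p = 1.0, exact permutation p = 0.200, 95% interval 0.966 to 1.17-fold). Without HDACI replicate 4 the difference was 0.04.

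Glrx, glutaredoxin, reduces protein disulfides with glutathione. Glrx measured 12.16, 12.09, 12.10 and 12.25 in HDACI replicates 1 to 4, against 12.22, 12.19, 12.18 and 12.12 in vehicle replicates 1 to 4. The groups overlapped, with HDACI replicate 4 the highest and HDACI replicate 2 the lowest of the 8 arrays. The difference was -0.03 ± 0.05 (SE, limma adjusted p = 1.0, exact permutation p = 0.543, 95% interval 0.907 to 1.06-fold). Glrx had the narrowest spread of the 10 responders, 0.16 over all arrays, which was wider than that of 15.4% of genes.

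Around these 2 genes, the thioredoxin and glutathione system had 18 measured members, 8 higher and 10 lower, with a median of -0.0055, and by limma 0 passed at an unadjusted p under 0.05. Gclm, a subunit of the enzyme that starts glutathione synthesis, differed by -0.07, and Glrx5, a mitochondrial glutaredoxin, by -0.08. Of 7 genes of the glucose response that also governs Txnip, 4 were higher and 3 lower, again with 0 past an unadjusted p of 0.05 in limma. The glucose transporter Slc2a1 differed by 0.10 and the hexokinase Hk2 by 0.12. Arrdc4, the arrestin most closely co-regulated with Txnip in other tissues, differed by 0.02.

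The metallothionein genes Mt1 and Mt2A encode small cysteine-rich proteins that bind zinc and copper, and both are induced by metals and glucocorticoids through short promoter elements. Their promoters are shown for these elements. Of the 4 probe sets given to these genes, 3 varied together across the arrays, but any link of the elements to this was not tested. The study's own annotation gives some of these probe sets to other loci (below). The sequences are those of RefSeq on GRCr8, 250 bases ending just before the listed transcript start, given 5′ to 3′ along the gene. Capitals mark every metal response element, the core TGCACNC or TGCGCNC on either strand. Mt1 lies on the minus strand with the window at chr19:10832976-10833225, and Mt2A on the minus strand with the window at chr19:10838709-10838958.
Mt1: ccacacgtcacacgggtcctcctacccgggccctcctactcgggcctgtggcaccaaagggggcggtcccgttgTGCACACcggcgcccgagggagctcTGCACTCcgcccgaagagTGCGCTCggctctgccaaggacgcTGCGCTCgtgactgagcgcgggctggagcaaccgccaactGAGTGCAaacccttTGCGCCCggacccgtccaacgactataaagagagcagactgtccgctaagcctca
Mt2A: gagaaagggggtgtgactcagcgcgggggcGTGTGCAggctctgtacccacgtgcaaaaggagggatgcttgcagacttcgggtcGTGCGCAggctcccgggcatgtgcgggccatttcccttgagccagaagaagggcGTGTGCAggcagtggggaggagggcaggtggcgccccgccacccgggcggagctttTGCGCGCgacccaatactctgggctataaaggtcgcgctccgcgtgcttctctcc
The Mt1 window held 6 such elements, and the Mt2A window held 4. Of 33469 windows of the same length over all listed genes, 20.6% held at least 1, 0.266% held 4 or more and 0.0269% held 6 or more. A match describes the letters only.

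Mt2A had the widest spread of the 10 responders. Mt2A measured 11.93, 11.36, 11.14 and 11.76 in HDACI replicates 1 to 4, against 11.08, 12.42, 11.50 and 11.69 in vehicle replicates 1 to 4. Vehicle replicates 1 and 2 were the lowest and the highest of all 8 arrays, and all HDACI arrays lay between them. The range of 1.35 exceeded that of 98.9% of genes. Mt2A averaged 11.55 ± 0.36 in HDACI and 11.67 ± 0.56 in vehicle (SD, n = 4 each), a difference of -0.12 ± 0.28 (SE, limma adjusted p = 1.0, exact permutation p = 0.743) with a 95% interval of 0.594 to 1.42-fold. Its direction rested on single arrays, being 0.13 without vehicle replicate 2, 0.01 without HDACI replicate 3 and -0.32 without vehicle replicate 1.

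Mt1 measured 11.56, 11.45, 11.47 and 11.40 in HDACI replicates 1 to 4, against 11.26, 11.65, 11.46 and 11.55 in vehicle replicates 1 to 4. Here too the HDACI arrays lay inside the vehicle range, with vehicle replicate 1 lowest and vehicle replicate 2 highest. The difference was -0.02 ± 0.08 (SE, limma adjusted p = 1.0, exact permutation p = 0.943, 95% interval 0.870 to 1.12-fold). The second probe set of Mt1 measured 10.71, 10.39, 10.13 and 10.44 in HDACI replicates 1 to 4, against 10.18, 11.09, 10.46 and 10.49 in vehicle replicates 1 to 4. That of Mt2A measured 10.89, 10.32, 10.05 and 10.84 in HDACI replicates 1 to 4, against 10.08, 11.55, 10.44 and 10.59 in vehicle replicates 1 to 4. Both second probe sets placed vehicle replicate 2 highest and differed by -0.14 (exact permutation p = 0.543 for Mt1 and 0.743 for Mt2A).

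Of the 4 metallothionein probe sets, 3 varied together over the 8 arrays, within HDACI and within vehicle. The 2 Mt2A probe sets correlated at r = 0.991 (rho = 0.976, exact permutation p = 4.96e-05 for r and 0.000397 for rho), and at 0.981 without vehicle replicates 1 and 2, the arrays farthest from the median. The dimmer Mt1 and the brighter Mt2A probe set correlated at r = 0.971 (rho = 0.905, exact permutation p = 0.000273 for r and 0.00456 for rho), and at 0.927 without HDACI replicate 3 and vehicle replicate 2. Within HDACI that r was 0.933 and within vehicle it was 0.991, over 4 arrays each. Adjusted over the 6 pairs of these 4 probe sets, the p of r was 0.000298 for the first and 0.000818 for the second. The brighter Mt1 probe set followed the others less closely. It correlated with the brighter Mt2A probe set at r = 0.798 (rho = 0.690, exact permutation p = 0.0187 for r and 0.0694 for rho), but at 0.374 without vehicle replicates 1 and 2, so this relation rests on those arrays.

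Which metallothionein each probe set measures is uncertain. The genes are near-identical in sequence, and cross-hybridization between them was not tested. The study's own annotation of the array gives both Mt1 probe sets to a locus that RefSeq lists as Mt1f, on chromosome X, and the dimmer Mt2A probe set to Mt1m, a pseudogene on chromosome 20. The remaining metallothioneins on the array, Mt3, which is made mainly in brain, and Mt4, which is made in squamous epithelium, differed by 0.02 and -0.02. Of 13 genes of metal handling, 10 were higher and 3 lower, with a median of 0.03, and 0 passed at an unadjusted p under 0.05 by limma. The zinc importer Slc39a14 differed by 0.15 ± 0.08 (SE) and the zinc exporter Slc30a1, a target of the same metal-sensing factor as Mt1, by 0.07.

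**Figure D2:**
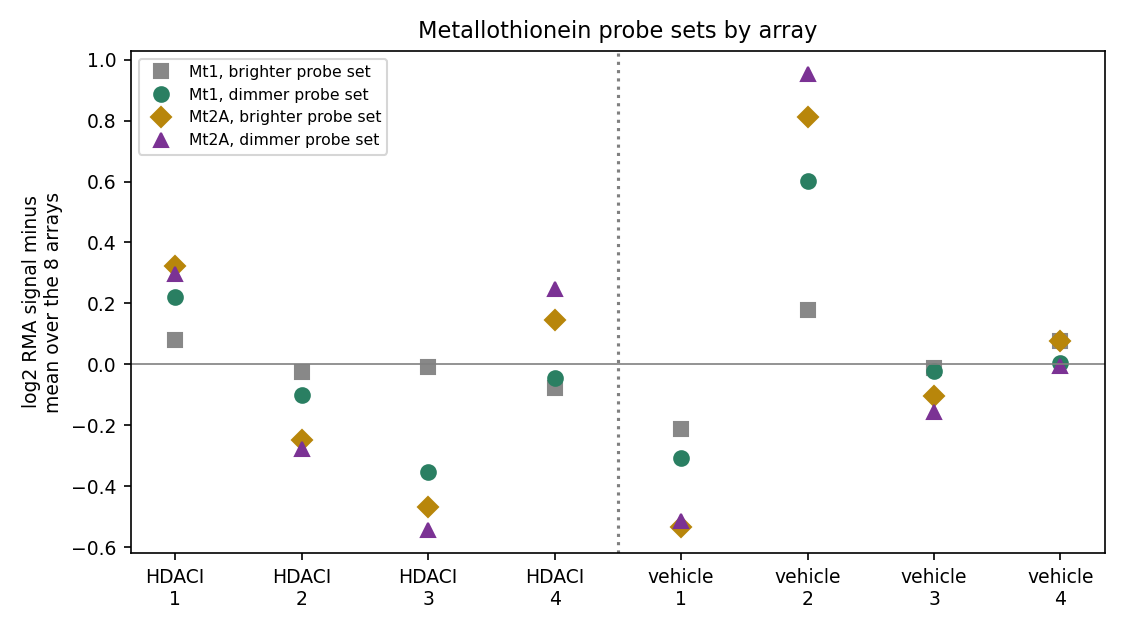
Each point is the log2 signal of 1 metallothionein probe set on 1 array minus its mean over the 8 arrays, HDACI arrays left of the dotted line and vehicle arrays right of it. All 4 probe sets are highest in vehicle replicate 2, and the HDACI arrays lie within the vehicle range for the brighter probe sets of Mt1 and Mt2A.

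Of the cytoskeletal and LIM domain genes, Gsn, gelsolin, severs and caps actin filaments and is induced by HDAC inhibitors in transformed cells. Gsn measured 11.50, 11.68, 11.59 and 11.41 in HDACI replicates 1 to 4, against 11.37, 11.36, 11.89 and 11.21 in vehicle replicates 1 to 4. All HDACI arrays lay above vehicle replicates 1, 2 and 4 and below vehicle replicate 3. Gsn averaged 11.55 ± 0.11 in HDACI and 11.46 ± 0.30 in vehicle (SD, n = 4 each), a difference of 0.09 ± 0.14 (SE, limma adjusted p = 1.0, exact permutation p = 0.600) with a 95% interval of 0.858 to 1.32-fold. Without vehicle replicate 3 it was 0.23 ± 0.08 (SE), past an unadjusted p of 0.05 but not past the adjusted one in limma (adjusted p = 1.0). Among the other members of the gelsolin family, the capping protein Capg, which is rich in macrophages, was the only family relative past an unadjusted p of 0.05. Capg averaged 10.98 ± 0.08 in HDACI and 10.70 ± 0.27 in vehicle (SD, n = 4 each), a difference of 0.28 ± 0.12 (SE, limma adjusted p = 1.0), and the groups overlapped.

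Crip1 encodes a small zinc-binding LIM domain protein. Crip1 measured 11.92, 11.95, 11.83 and 12.27 in HDACI replicates 1 to 4, against 12.19, 11.77, 11.88 and 11.67 in vehicle replicates 1 to 4. The highest array was HDACI replicate 4 and the next was vehicle replicate 1. The difference was 0.12 ± 0.13 (SE, limma adjusted p = 1.0, exact permutation p = 0.429, 95% interval 0.891 to 1.32-fold), and it was 0.03 without HDACI replicate 4 and 0.22 without vehicle replicate 1. The related LIM proteins Crip2 and Csrp1 differed by -0.06 and 0.06.

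Clu encodes clusterin, a secreted chaperone that binds misfolded proteins and complement. Clu measured 12.59, 12.70, 12.75 and 12.71 in HDACI replicates 1 to 4, against 12.66, 12.65, 12.78 and 12.66 in vehicle replicates 1 to 4. The groups overlapped fully, with the lowest array in HDACI and the highest in vehicle. The difference was -0.00087 ± 0.05 (SE, limma adjusted p = 1.0, exact permutation p = 1.0), with a 95% interval of 0.921 to 1.08-fold.

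Sncg, gamma-synuclein, is abundant in sensory neurons. Sncg measured 12.83, 12.74, 12.66 and 12.72 in HDACI replicates 1 to 4, against 12.77, 12.80, 12.79 and 12.75 in vehicle replicates 1 to 4. HDACI replicate 1 lay above all vehicle arrays and the other HDACI arrays lay below all of them. Sncg averaged 12.74 ± 0.07 in HDACI and 12.78 ± 0.02 in vehicle (SD, n = 4 each), and the difference of -0.04 ± 0.05 (SE) did not pass (limma adjusted p = 1.0, exact permutation p = 0.314, 95% interval 0.903 to 1.05-fold). Sncb, beta-synuclein, differed by -0.07.

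**Figure D3:**
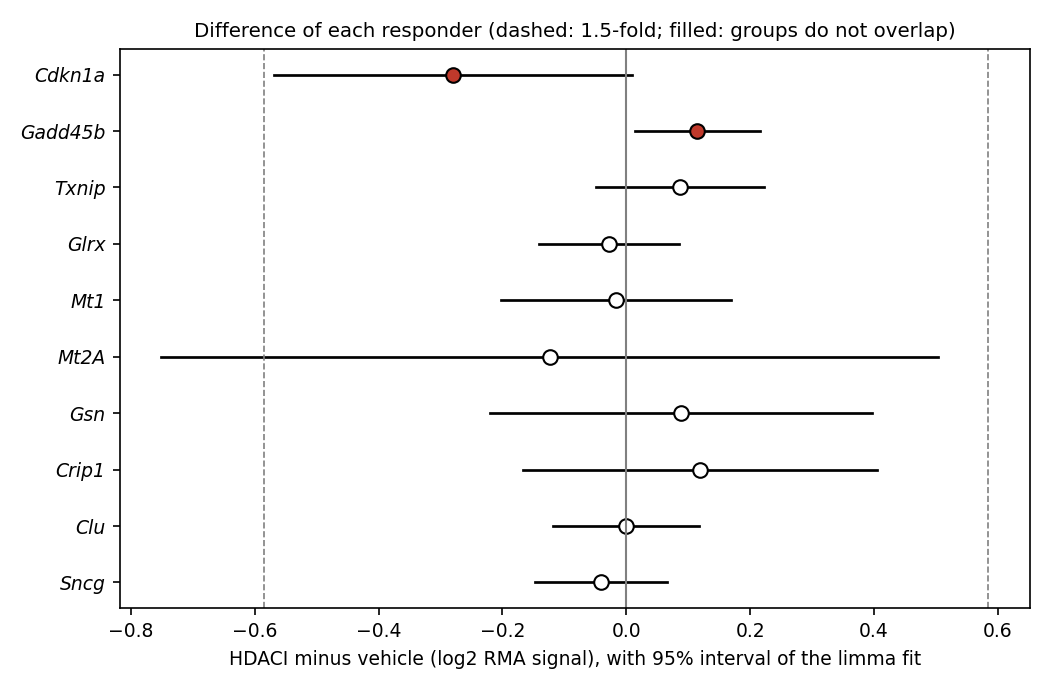
Difference of each responder (HDACI minus vehicle, log2) with its 95% interval from limma, filled where the groups did not overlap and with dashed lines at a 1.5-fold change. Cdkn1a lies at -0.28 and Gadd45b at 0.11, the intervals of all genes but Gadd45b span 0, and that of Mt2A is the widest.

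Other genes that respond to HDAC inhibitors, and the class I enzymes, were read beside the 10. All 7 measured genes of a further list of such responders were higher in HDACI, against 53.1% of all genes, with a median of 0.06. By limma 0 of them passed at an unadjusted p under 0.05. The list was not limited to genes that such inhibitors raise, so the count describes direction only. Some of its genes also stand in other lists here. The 2 with the smallest p were Cdkn1c (0.12, above) and Ccnd1, cyclin D1 (0.10 ± 0.06, SE), which HDAC inhibitors usually repress. Of the 4 class I enzymes, Hdac2 averaged 11.07 ± 0.04 in HDACI and 11.20 ± 0.03 in vehicle (SD, n = 4 each), a difference of -0.13 ± 0.04 (SE, limma adjusted p = 1.0), the only one of the 4 past an unadjusted p of 0.05. Its highest HDACI array (11.12) lay below its lowest vehicle array (11.16). Hdac1 differed by 0.10 ± 0.07 (SE). The list was split, with 2 enzymes higher and 2 lower. Of the 26 measured relatives of the 10 responders, 14 were higher and 12 lower, with a median of 0.015.

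The arrays differed in the signal of cell type markers. Skeletal muscle markers averaged 7.38 to 7.71 over the HDACI arrays, against 10.24, 9.59, 7.52 and 8.77 in vehicle replicates 1 to 4, and all 32 measured markers were lower in HDACI (median -1.48), 25 of them at an unadjusted limma p under 0.05 and 0 after adjustment. Sensory neuron markers averaged 10.40 to 10.54 in HDACI and 10.40 to 10.88 in vehicle, and 21 of the 22 measured markers were lower in HDACI and 1 higher (median -0.10), with 0 past an unadjusted p of 0.05 in limma. Of the 22, 20 lay above the median of all probe sets. Macrophage markers averaged 10.23 to 10.80 in HDACI, highest in replicate 4, and 10.26 to 10.48 in vehicle, and 16 of 17 were higher. Fibroblast markers were higher for 13 of 14 and those of endothelial cells and pericytes for 12 of 15. The array averages overlapped between the groups for both lists. They were 10.99 to 11.50 in HDACI and 10.92 to 11.34 in vehicle for fibroblasts. For endothelial cells and pericytes they were 9.72 to 9.86 and 9.64 to 9.78. Markers of satellite glia were higher for 4 of 10, of myelinating Schwann cells for 2 of 10 and of neutrophils for 8 of 10. Those of T cells were higher for 7 of 9, of erythroid cells for 6 of 6 and of adipocytes for 7 of 9. Erythroid markers averaged 7.61 to 8.44 in HDACI, highest in replicate 2, and 7.51 to 7.94 in vehicle. Above the median of all probe sets lay only 3 of 10 neutrophil, 1 of 9 T cell, 1 of 6 erythroid and 3 of 9 adipocyte markers. The counts of these 4 lists thus come mostly from dim probe sets. Of the 32 skeletal muscle markers, 16 lay above that median. For comparison, 53.1% of all genes were higher in HDACI. Array medians were within 8.13 to 8.16.

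A skeletal muscle score was added to the fits as a covariate, although its markers were themselves lower in HDACI. With this covariate the difference of Cdkn1a was -0.18 ± 0.18 (SE), against -0.28 ± 0.13 (SE) without it. That of Gadd45b was 0.14 ± 0.07 (SE) with it, and by limma neither then passed at an unadjusted p under 0.05. Within vehicle, replicates 1 and 3, with 10.24 and 7.52 for the markers, had a Cdkn1a signal of 10.06 each, and replicate 2, with 9.59, had 10.64. Gsn was lowest in the 3 vehicle arrays with the most muscle signal and highest in vehicle replicate 3, and with the covariate its difference was -0.15 ± 0.16 (SE), the opposite direction. With the sensory neuron score as a covariate Crip1 differed by -0.03 and Mt1 by 0.06, also in the opposite direction. The part of these cells in the differences was not tested.

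**Figure D4:**
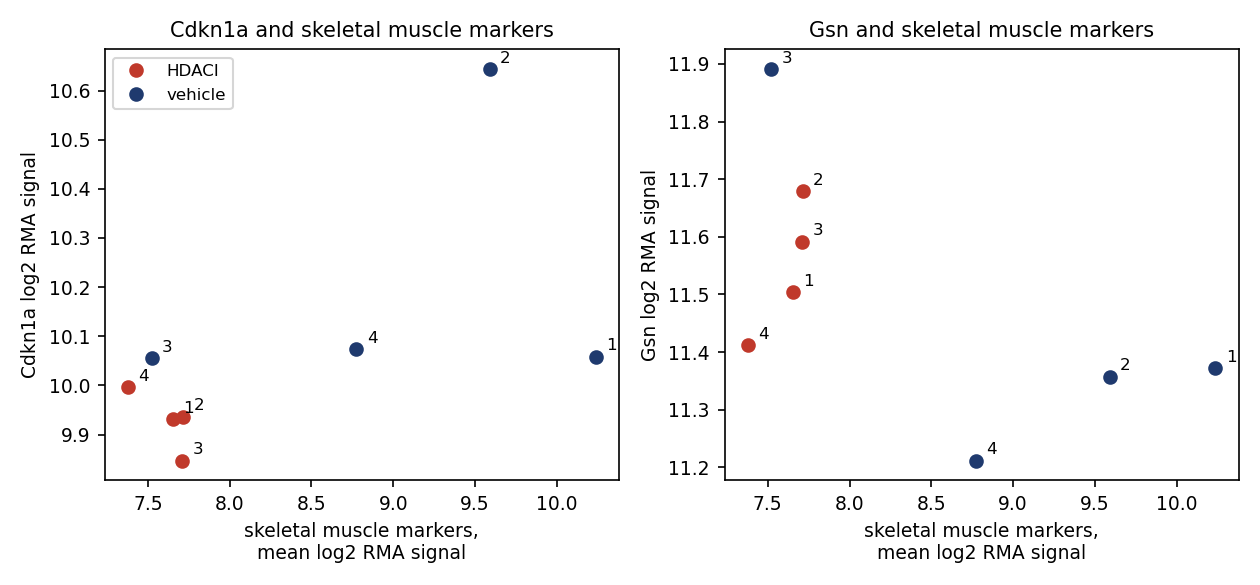
Log2 signal of Cdkn1a (left) and Gsn (right) on each array against the mean log2 signal of the skeletal muscle markers, HDACI in red and vehicle in blue, with replicate numbers. Vehicle replicates 1 and 3 have the same Cdkn1a signal of 10.06 at marker levels of 10.24 and 7.52, and Gsn is highest, 11.89, in vehicle replicate 3.

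The responders did not move as a unit. HDACI replicate 4 was the highest array for 3 of them, Txnip, Glrx and Crip1, and vehicle replicate 2 for another 3, Cdkn1a, Mt1 and Mt2A. Over the 8 arrays the median range was 0.33 for the responders and 0.28 for all genes, and 5 of the 10 exceeded that of all genes. Cdkn1a, Gsn and Crip1 varied more than 95.9%, 94.1% and 91.6% of genes. Of the 45 pairs of responders, none had a correlation that passed Benjamini-Hochberg adjustment over the pairs (smallest adjusted exact permutation p = 0.450 for r and 0.721 for rho). Mt1 and Crip1 correlated at r = -0.781 (rho = -0.786, exact permutation p = 0.0219 for r and 0.0279 for rho), and at -0.754 without vehicle replicates 1 and 2. Sncg and Gadd45b correlated at r = -0.752 (rho = -0.667, exact permutation p = 0.0300 for r and 0.0831 for rho), and at -0.859 without HDACI replicates 1 and 3. Cdkn1a and Mt2A correlated at r = 0.731 (rho = 0.286, exact permutation p = 0.0484 for r and 0.501 for rho), which turned to -0.362 without HDACI replicate 3 and vehicle replicate 2 and so rests on those arrays.

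For the 3 responders with the widest range, the genes with the most similar profile were sought among 14497 genes by Pearson's r over the 8 arrays. Closest to Mt2A were Rasl11b, a small GTPase (r = 0.986), and Ruvbl2, an ATPase of chromatin remodelling complexes (r = 0.972), and these differed by -0.02 and 0.0071 between HDACI and vehicle. Closest to Cdkn1a were Ankrd1, an ankyrin repeat protein of striated muscle (r = 0.964), and Chrna1, a subunit of the muscle acetylcholine receptor (r = 0.954), which differed by -0.32 ± 0.25 and -0.61 ± 0.29 (SE). Closest to Gsn were the pacemaker channel Hcn4 (r = 0.973) and the peptidase Naalad2 (r = 0.959), which differed by 0.0068 and 0.08. With 8 arrays and this many genes compared, such values describe these arrays only.

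**Figure D5:**
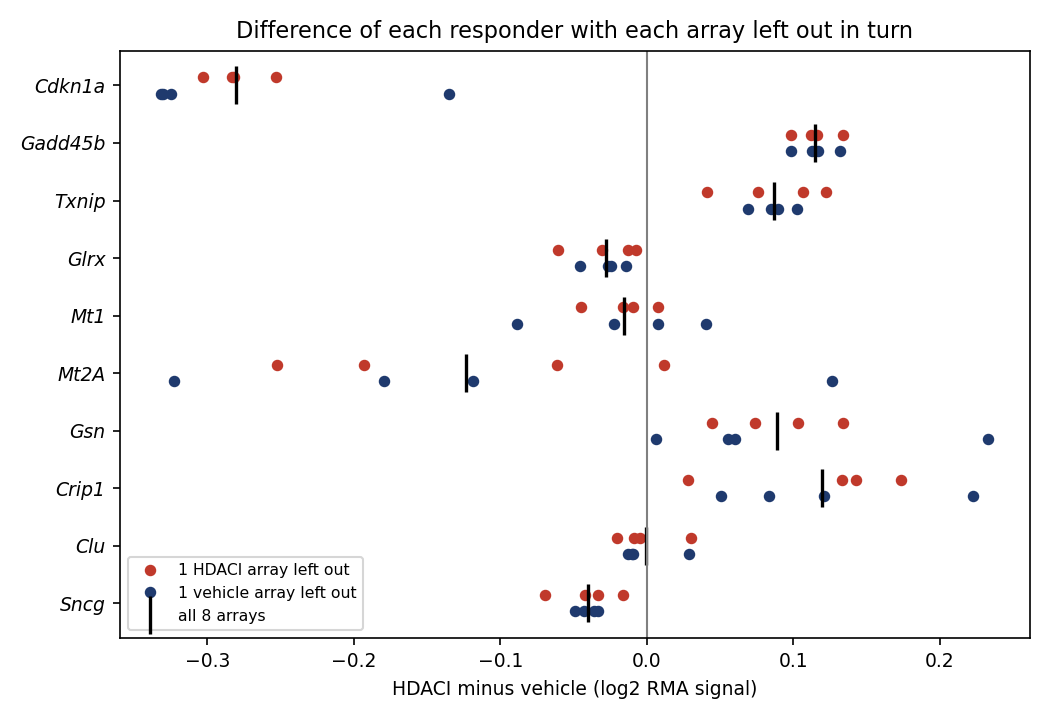
Difference of each responder (HDACI minus vehicle, log2) when 1 HDACI array (red) or 1 vehicle array (blue) was left out, with a black bar for all 8 arrays. Cdkn1a stays below 0 but moves to -0.13 without vehicle replicate 2, Gadd45b stays between 0.098 and 0.13, and Mt1, Mt2A and Clu fall on both sides of 0.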

How the data were processed

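RNA from 4 HDACI and 4 vehicle L5 DRG was hybridized to Affymetrix Rat Gene 1.0 ST arrays, and per the study's methods these were biological replicates. The authors normalized the arrays by RMA (Bioconductor package oligo), and the deposited values are log2 signals per probe set. Versions of RMA and oligo are not given in the sources used here. Quantile normalization within RMA equalizes the distributions of the arrays, so a shift common to all transcripts would not be seen. No 2 arrays were copies (at most 0.0486% equal values, correlations of 0.991 to 0.997). The number of arrays limits the precision.

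Groups came from the sample labels. Gene names came from the platform annotation, and only probe sets with 1 symbol were named. Differences were fitted with limma 3.58.1 in R 4.3.3 over all 28826 probe sets, with two-sided p-values adjusted over the whole table by Benjamini-Hochberg. Exact permutation tests used 70 relabellings of the arrays, and those of correlations 40320 pairings. Both were run in Python with numpy 2.4.6, with the ranks for rho from scipy 1.17.1. Named were the 10 responders, relatives of theirs, up to 2 genes of each other list with the smallest unadjusted p, and the 2 genes most like each of the 3 responders with the widest range. The responders, the 8 pathway lists and the 11 cell type lists were chosen with earlier results of these data known. The fit was checked on simulated data. Replicate numbers did not pair the arrays. Alternatives were a block, 3 normalizations, filters, variance models, array weights, 2 cell type marker scores and leaving out each array. Promoters were RefSeq windows of GRCr8.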

Additional observations from a re-analysis of the deposited data

Results flagged for a closer look

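Among the 24 groups of 4 arrays examined (the 12 probe sets in HDACI and in vehicle), 2 held an array far from the other 3 by Dixon's test, where chance alone gives about 1 in 20. Cdkn1a was 10.64 in vehicle replicate 2, against 10.06 to 10.07 in the other vehicle arrays (gap over range 0.968). Clu was 12.78 in vehicle replicate 3, against 12.65 to 12.66 in the other vehicle arrays (gap over range 0.926).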

How the results depend on the processing

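Of 192 differences of the responders under alternatives, 181 kept their direction and 0 passed an adjusted p of 0.05 in limma (smallest 0.701). The block, the filters and the variance model left the differences themselves unchanged, so those fits could not change a direction. Averaging the probe sets of a gene could do so only for Mt1 and Mt2A. The count of kept directions therefore includes fits with a fixed direction. Cdkn1a, Txnip, Sncg, Glrx and Gadd45b kept their direction in all. With a covariate for skeletal muscle signal Gsn differed by -0.15, with one for sensory neurons Crip1 differed by -0.033 and Mt1 by 0.057, and after cyclic loess Clu differed by 0.0025. With 1 array left out, Clu ranged over -0.021 to 0.030 (positive without HDACI replicate 1 or vehicle replicate 3), Mt1 over -0.089 to 0.041 (positive when HDACI replicate 4 or vehicle replicate 2 or 4 was left out) and Mt2A over -0.32 to 0.13 (positive when HDACI replicate 3 or vehicle replicate 2 was left out). Members past an unadjusted p of 0.05 numbered 2 with array weights (Cdkn1a and Gadd45b), where 7.09% of all probe sets passed against 3.55% without weights, and 0 with the muscle score (3.97%). With 1 array left out they numbered 0 to 2 (2.46% to 6.10%), being 0 without HDACI replicate 2 or 3, Cdkn1a alone when vehicle replicate 1 or 2 was left out, Cdkn1a and Gsn without vehicle replicate 3, Cdkn1a and Gadd45b without vehicle replicate 4, and Gadd45b alone otherwise. Members whose groups did not overlap numbered 1 after a second quantile normalization (2.37% of all probe sets) and 1 after cyclic loess (2.51%), and 2 to 3 with 1 array left out (3.37% to 7.60%). The median of the responders ran over -0.053 with the muscle score to 0.048 without vehicle replicate 2.

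Samples with the same replicate number did not deviate together (r of -0.04, 0.01, 0.01 and -0.28), so the numbers were not used for pairing. With the replicate number as a block the differences were the same, 0 responders passed after adjustment and 1 passed before it, Cdkn1a in place of Gadd45b, and 803 of all probe sets passed an unadjusted p of 0.05, against 1022 without the block. The second probe sets of Mt1 and Mt2A, an alternative chosen after seeing the data, kept the direction. With 4 arrays per group, the 95% intervals extend 0.10 to 0.63 on either side of a difference (log2), and smaller changes could not be seen.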
